A study of Rattus norvegicus with 27 samples.

Results

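The integrated stress response genes Atf4, Atf3, Ddit3, Cebpb, Cebpg, Ppp1r15a, Trib3, Chac1 and Asns were followed in rat hippocampal CA1 and CA3, in total RNA and in RNA bound to polysomes, after global brain ischemia. The 9 genes were listed by name, and each was read from the probe set that carries its symbol alone in the platform annotation. Each gene had 1 such probe set. They are 9 of 18166 genes that could be named in this way. All 9 were among the 12716 genes bright enough, by their mean over all 27 arrays, to be tested. The animals were male Long Evans rats of an age not given in the sources used here. In the group called NIC they were sham operated and not ischemic. In the group called 8R both carotid arteries were clamped under low blood pressure for 10 min at normal body temperature, which gives complete global ischemia, and blood flow was then restored for 8 h. The dissected CA1 or CA3 of 5 rats formed 1 pool, a post-mitochondrial supernatant of each pool was divided, and 1 portion gave total RNA while the rest was pelleted through sucrose to give polysome RNA. There were 27 Affymetrix Rat Gene 2.0 arrays in 8 groups of condition, region and fraction. Each NIC group had 3 arrays (pools 1, 2 and 3), 8R CA1 polysome RNA had 3 (pools 1, 3 and 4), and the other 8R groups had 4 (pools 1 to 4). Values of single arrays are given below in that order of pools. A sucrose pad does not sort polysomes by the number of ribosomes, and equal masses of RNA went onto all arrays, so a change in total RNA or in overall translation does not appear. In dissected tissue, fewer cells of a type and less RNA per cell cannot be told apart.

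The integrated stress response begins when a kinase phosphorylates the translation initiation factor eIF2. Most protein synthesis then falls, while transcripts with suitable upstream open reading frames, Atf4 above all, are translated more. ATF4 protein, with C/EBP-family partners, activates genes of amino acid supply and redox balance, and also Atf3 and Ddit3, whose product CHOP is linked to cell death. Ppp1r15a encodes GADD34, which directs a phosphatase back to eIF2 and so closes the loop. In brain ischemia, eIF2 is known to become phosphorylated early in reperfusion. Over the following days CA1 loses most of its pyramidal neurons, as is well known, and CA3 keeps more of its own.

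The letters that ATF4 with a C/EBP partner, or a CREB and ATF dimer, are known to bind were looked for before the start of each gene, since most of the 9 genes moved together. RefSeq promoters of the GRCr8 build matched 8 of the 9 genes, all but Atf3. The search covered the 250 bases before the start in the promoter record, on both strands. It looked for TGANGNAA (a form of the C/EBP-ATF composite element) and for TGACGTCA (the CREB and ATF palindrome). The motifs differ in their last letters, so no stretch matches both. The 4 promoters with a match are shown with the matching letters in capitals, which for a match on the opposite strand are its reverse complement.
Chac1 (chr3:126795881-126796130, + strand): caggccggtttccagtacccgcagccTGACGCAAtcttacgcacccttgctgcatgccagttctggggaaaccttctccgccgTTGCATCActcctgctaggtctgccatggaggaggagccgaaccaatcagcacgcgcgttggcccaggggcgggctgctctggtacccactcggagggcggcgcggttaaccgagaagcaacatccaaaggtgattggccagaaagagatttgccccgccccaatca
Ppp1r15a (chr1:105139597-105139846, - strand): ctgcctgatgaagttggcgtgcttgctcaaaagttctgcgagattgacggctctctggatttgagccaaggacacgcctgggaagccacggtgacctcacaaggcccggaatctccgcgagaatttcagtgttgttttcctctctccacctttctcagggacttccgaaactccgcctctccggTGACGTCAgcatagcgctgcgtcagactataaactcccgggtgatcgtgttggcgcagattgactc
Trib3 (chr3:161275534-161275783, - strand): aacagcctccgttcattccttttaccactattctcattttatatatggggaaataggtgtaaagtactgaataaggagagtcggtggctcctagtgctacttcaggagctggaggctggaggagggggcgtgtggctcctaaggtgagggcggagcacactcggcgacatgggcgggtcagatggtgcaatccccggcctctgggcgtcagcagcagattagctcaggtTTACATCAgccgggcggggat
Atf4 (chr7:113684431-113684680, + strand): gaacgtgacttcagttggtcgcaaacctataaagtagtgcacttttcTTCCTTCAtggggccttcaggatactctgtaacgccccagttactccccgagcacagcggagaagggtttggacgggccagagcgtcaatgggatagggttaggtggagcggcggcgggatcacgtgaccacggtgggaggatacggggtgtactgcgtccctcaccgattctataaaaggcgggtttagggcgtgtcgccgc
In Chac1 the composite element stood 224 to 217 bases before the start as TGACGCAA, and again 167 to 160 bases before it, on the opposite strand, as TGATGCAA. The Ppp1r15a palindrome lay 66 to 59 bases before the start. In Trib3 the match was TGATGTAA on the opposite strand, 21 to 14 bases before the start, and in Atf4 it was TGAAGGAA on the opposite strand, 203 to 196 bases before it. Ddit3, Cebpb and Cebpg held neither motif in these windows. The Asns window held neither as well, but it did not border the start of the annotated gene. It lay at chr4:36769416-36769665 (- strand), inside that gene (36752061 to 36769970). Whether the bases before the outer start of Asns hold a motif was not tested. Of 33469 promoters of the same length, 15.1% held TGANGNAA, 1.59% held TGACGTCA and 16.5% held either. A match describes the letters and is not a measured binding site.

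The median intensity of an array was between 25.6 and 38.1, and between 27.4% and 36.8% of its probe sets lay below 16. The lowest correlation between arrays of a group was 0.955 to 0.979, and the median SD of a gene was 0.10 to 0.11 log2 in NIC groups and 0.15 to 0.17 in 8R groups. How the arrays were scaled to each other is not given in the sources used here, and this touches comparisons of CA1 with CA3 polysome RNA and of CA1 polysome with total RNA, where the median of all genes was displaced by 0.18 to 0.23 log2. Of the markers of the regions, 2 of 5 CA1 pyramidal genes were higher and 3 of 6 CA3 pyramidal genes were lower in NIC CA1 total RNA than in CA3. Oligodendrocyte markers were higher in CA1 for 4 of 4. Of all genes 3.47% were called in either direction there. After ischemia 3 of 4 astrocyte markers and 2 of 6 microglia markers rose in CA1 total RNA. In that comparison 20.1% of all genes were called higher and 6.15% lower. Counts of 1 or 2 markers there are not read as results about the cells. The summed intensity of the astrocyte markers was 1481 to 1616 in NIC and 2098 to 2357 in 8R CA1 total RNA, and that of the microglia markers was 284 to 322 and 374 to 424. The summed neuronal markers were 6429 to 6790 and 5293 to 6285, and 2 of 4 fell. In the same comparison 2 of 5 CA1 pyramidal markers fell (sums of 1082 to 1244 and 830.0 to 1429), and 1 of 3 dentate granule markers rose (354 to 486 and 524 to 773). In CA3 total RNA the sums went from 1277 to 1317 in NIC to 1492 to 1901 in 8R for astrocytes, from 258 to 290 to 360 to 372 for microglia, and from 6656 to 7045 to 6339 to 6947 for neurons. There 1 of 4 astrocyte and 2 of 6 microglia markers were called higher, and of 4 neuronal markers 1 rose and 1 fell. Of all genes 14.2% were called higher and 1.34% lower, and these counts are not read as results about the cells. No marker of any list was at 0 on an array. What these cells contribute to the values of the 9 genes was not tested. All changes below are differences of log2(intensity + 16), which understates the change of dim genes, and adjusted p-values are limma's over the 12716 genes.

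After ischemia 6 of the 9 genes rose in CA1 total RNA, where 20.1% of all genes were called higher. The count was 6 for polysome RNA of CA1 (4.87% of all genes), 6 for total RNA of CA3 (14.2%) and 5 for polysome RNA of CA3 (2.38%). None of the 9 genes fell, while 6.15%, 3.46%, 1.34% and 0.275% of all genes did in the same order of comparisons. The 9 genes were chosen with earlier results of these data known, so the shares of all genes are no independent test of their counts. All 8R arrays lay above all NIC arrays for 6, 6, 6 and 5 of the 9 genes, and for 24.5%, 13%, 20.2% and 13.2% of all genes. Among all called genes the share of higher ones was 76.6% in CA1 total, 91.4% in CA3 total and 89.6% in CA3 polysome RNA, and after quantile normalization it was 52.7%, 59.1% and 73.3%. Atf3, Atf4, Ddit3, Ppp1r15a and Chac1 rose in every region and fraction. Cebpg rose in total RNA of both regions, Trib3 rose in CA1 polysome RNA, and Cebpb and Asns passed the test in neither region. Genes were kept for testing by their mean over NIC and 8R arrays together, with a cut of 5.39 log2. NIC group means were 4.67 to 5.63 for Atf3 and 5.09 to 5.60 for Trib3. Over the NIC arrays alone the mean of both genes lay below that cut. Both thus passed with the aid of the 8R arrays, and their rises are not independent of the filter. The median change of the 9 genes was 1.32, 0.93, 0.75 and 0.64 log2 in these 4 comparisons, beside 0.04, 0.01, 0.08 and 0.04 for all genes tested. In CA3 polysome RNA the count of 5 was the least firm. It was 2 without the NIC pool 2 array, 3 without the array of NIC pool 1, NIC pool 3 or 8R pool 4, and 3 after quantile normalization.

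**Figure D1:**
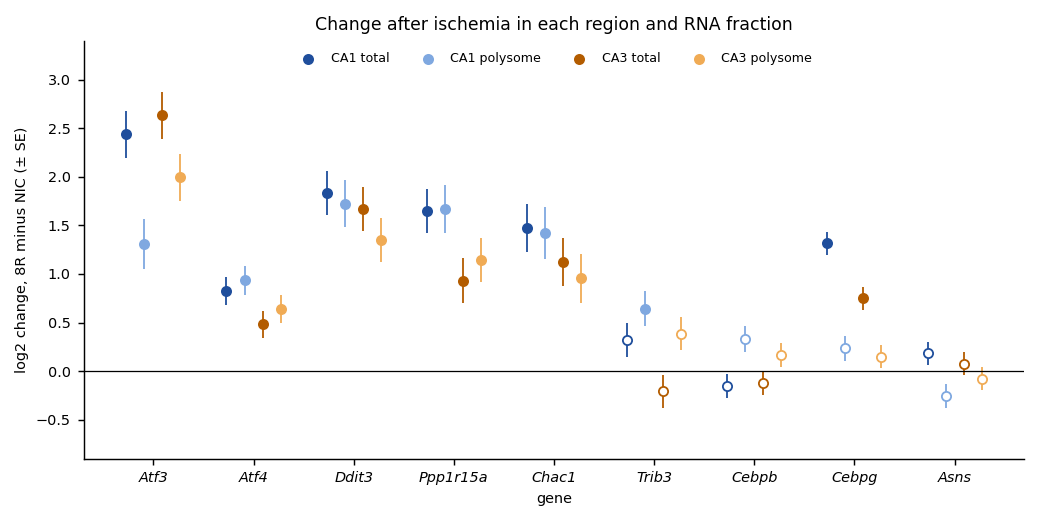
Change after ischemia of each of the 9 genes on the log2(intensity + 16) scale, 8R minus NIC, in CA1 and CA3 total and polysome RNA. Points are limma estimates with bars of 1 SE, and filled points have an adjusted p under 0.05. Filled points of all 4 colours appear for 5 genes, and Cebpg is filled in total RNA alone.

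Atf4 encodes the central activator of the response. Its level in CA1 total RNA was 411, 396 and 359 in NIC and 823, 631, 599.5 and 767 in 8R. In CA1 polysome RNA it was 314, 315 and 345 in NIC and 712, 477 and 748 in 8R. In both fractions of CA1 every 8R array lay above every NIC array. Atf4 rose 1.77-fold in CA1 total RNA (log2 change 0.82 ± 0.14 SE, adjusted p = 7.17e-05, n = 4 and 3) and 1.91-fold in CA1 polysome RNA (0.93 ± 0.15 SE, adjusted p = 0.000222, n = 3 and 3). In CA3 total RNA the values were 444, 404 and 431 in NIC and 626, 632, 493 and 669 in 8R. In CA3 polysome RNA they were 289, 304 and 296 in NIC and 480.2, 443, 367 and 620.0 in 8R. The CA3 groups did not overlap either, and the rise was 1.39-fold in total RNA (0.48 ± 0.14 SE, adjusted p = 0.0212) and 1.55-fold in polysome RNA (0.64 ± 0.14 SE, adjusted p = 0.0165). The CA3 total call was lost after quantile normalization (0.34, adjusted p = 0.21), and it was lost without the array of NIC pool 2 or 3 or of 8R pool 1 or 2. The CA3 polysome call was lost after quantile normalization (0.65, adjusted p = 0.062), without any 1 of the NIC arrays and without that of 8R pool 4.

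Atf3, a transcription factor gene that is nearly silent in resting neurons and is induced by many stresses, had the largest rise of the 9 genes in total RNA. Total RNA of CA1 held it at 8.88, 4.29 and 16.4 in NIC, near or below the 16 added before taking logs, and at 163, 111, 96.1 and 125 in 8R. In CA3 total RNA it was at 10.0, 22.8 and 17.6 in NIC and 211, 213, 95.8 and 261 in 8R. The lowest 8R array was thus far above the highest NIC array in each region. The log2 change was 2.44 ± 0.24 SE in CA1 (adjusted p = 2.31e-08) and 2.63 ± 0.24 in CA3 (adjusted p = 3.37e-08). With 1 added in place of 16 the changes were 3.66 and 3.44, and with 64 added 1.34 and 1.64, so their size rests on the constant. In CA1 polysome RNA Atf3 was at 34.8, 31.9 and 33.5 in NIC and 112, 87.2 and 122 in 8R, and in CA3 polysome RNA at 17.3, 17.5 and 17.1 and 156, 101, 64.5 and 175. Control polysome RNA of CA1 thus held more Atf3 signal than control total RNA, and the rise was 2.48-fold in CA1 polysome RNA (1.31 ± 0.26 SE, adjusted p = 0.00175) and 3.98-fold in CA3 polysome RNA (1.99 ± 0.24 SE, adjusted p = 8.81e-06). These sizes depend on the constant as well, since the NIC CA3 values lie at it. With 1 or 64 added the log2 change was 1.64 or 0.81 in CA1 and 2.67 or 1.17 in CA3 polysome RNA, and it was called each time.

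Ddit3 encodes CHOP. Its intensity in CA1 total RNA was 46.0, 36.8 and 38.6 in NIC and 265, 186, 137 and 169.7 in 8R, and in CA1 polysome RNA it was 46.6, 41.5 and 50.0 and 261, 135 and 188. In CA3 it went from 38.4, 39.6 and 43.9 to 222, 172, 93.6 and 197 in total RNA and from 41.2, 34.9 and 37.5 to 152, 114, 69.9 and 171 in polysome RNA. No 8R array reached down to a NIC array in any of the 4 comparisons. The rise was 3.56-fold in CA1 total RNA (1.83 ± 0.23 SE, adjusted p = 7.2e-07), 3.3-fold in CA1 polysome RNA (1.72 ± 0.24 SE, adjusted p = 2.96e-05), 3.18-fold in CA3 total RNA (1.67 ± 0.23 SE, adjusted p = 1.5e-05) and 2.54-fold in CA3 polysome RNA (1.35 ± 0.23 SE, adjusted p = 0.000871). These calls held under every alternative that was run.

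Cebpg encodes a C/EBP protein that lacks an activation domain of its own and pairs with ATF4. Total RNA of CA1 held it at 39.8, 36.8 and 37.0 in NIC and 149, 111, 102 and 114 in 8R, and total RNA of CA3 at 53.4, 39.8 and 42.7 and 96.1, 83.2, 75.9 and 92.6. Both pairs of groups stood apart. Cebpg rose 2.49-fold in CA1 total RNA (1.32 ± 0.12 SE, adjusted p = 3.63e-09) and 1.68-fold in CA3 total RNA (0.75 ± 0.12 SE, adjusted p = 7.67e-05). In polysome RNA it was at 75.7, 62.7 and 58.1 in NIC CA1 and 94.1, 75.5 and 70.6 in 8R CA1, and at 58.6, 65.4 and 49.2 in NIC CA3 and 72.2, 71.9, 59.0 and 59.2 in 8R CA3, and these ranges overlapped. The polysome change did not pass the test in CA1 (0.23 ± 0.13 SE, adjusted p = 0.27, 95% interval -0.02 to 0.49) or in CA3 (0.15 ± 0.12 SE, adjusted p = 0.518, interval -0.09 to 0.39). In CA1 it was called under 1 of 16 alternatives, with array weights (0.37, adjusted p = 0.0399), and in CA3 under none of 17.

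Cebpb, which encodes another C/EBP activator and partner of ATF4 and CHOP, passed the test in none of the 4 comparisons. Its intensity was 89.9, 94.5 and 94.8 in NIC and 75.4, 77.9, 88.7 and 86.4 in 8R CA1 total RNA, and 93.8, 80.3 and 72.3 and 110.1, 91.1 and 122 in CA1 polysome RNA. Every 8R array of CA1 total RNA lay below every NIC array, as in 10.1% of all genes, with a log2 difference of -0.16 (interval -0.41 to 0.10, adjusted p = 0.382). In CA1 polysome RNA the difference was 0.33 (interval 0.06 to 0.61, adjusted p = 0.124), and without the 8R pool 3 array it was 0.43 and was called (adjusted p = 0.0441). In CA3 the values were 91.0, 77.5 and 73.3 in NIC and 84.3, 68.4, 55.1 and 86.0 in 8R total RNA, and 66.6, 58.7 and 53.7 and 67.4, 56.3, 65.0 and 88.0 in polysome RNA. The CA3 groups overlapped, with differences of -0.12 (-0.38 to 0.13) and 0.16 (-0.09 to 0.42).

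**Figure D2:**
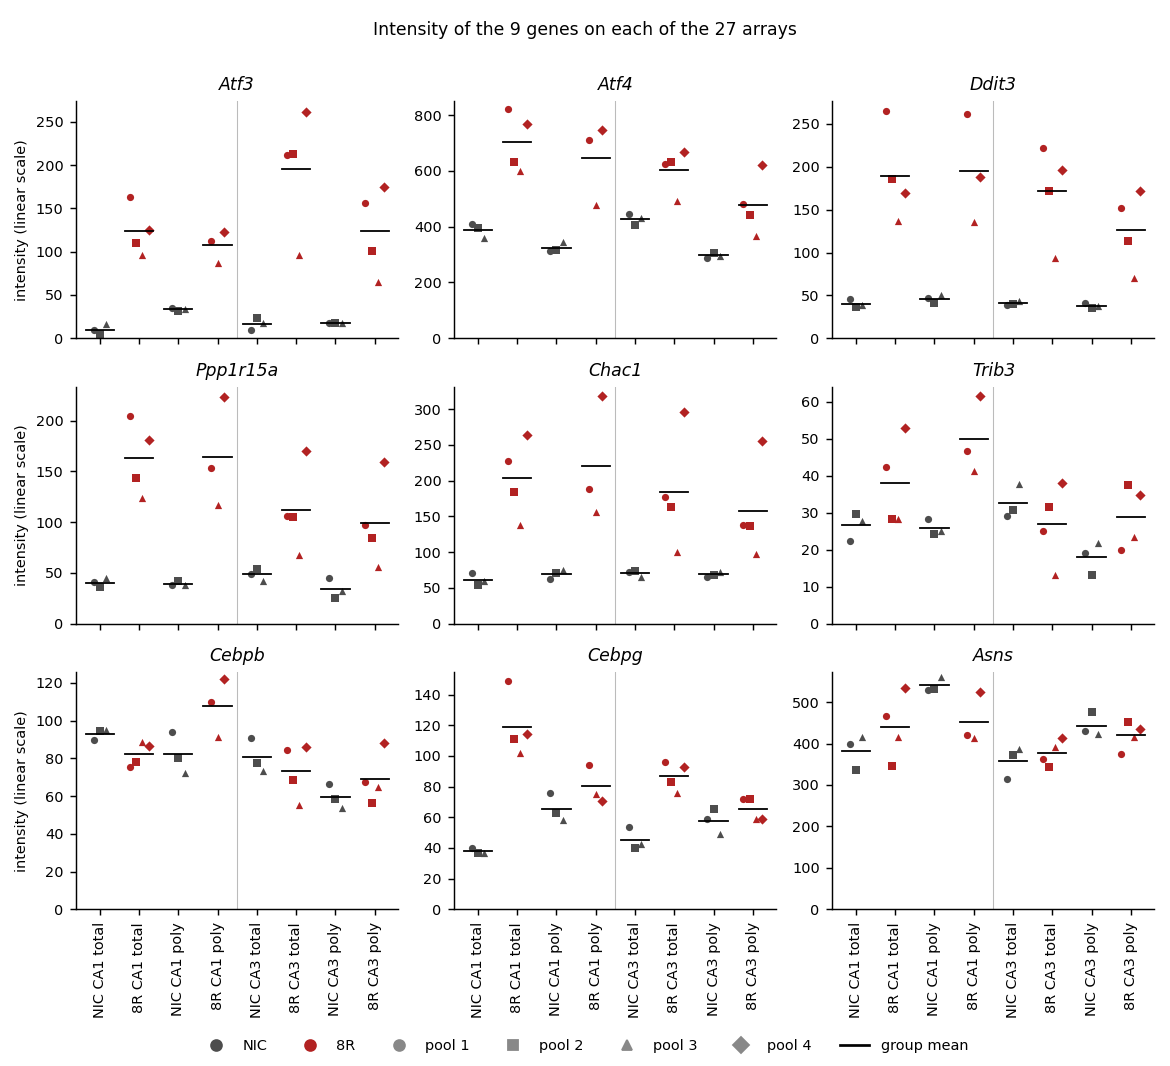
Intensity on a linear scale of the 9 genes on each of the 27 arrays, in 1 panel per gene with its own axis from 0. Grey symbols are NIC and red symbols are 8R arrays, the shape gives the pool and the line gives the group mean. Red lies wholly above grey in the 4 pairs of groups for Atf3, Atf4, Ddit3, Ppp1r15a and Chac1. In those panels the triangle of pool 3 is the lowest red symbol within each 8R group.

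Ppp1r15a, whose product GADD34 brings a phosphatase to eIF2, rose in all 4 comparisons. In CA1 total RNA it was at 41.1, 35.9 and 44.6 in NIC and 204, 144, 124 and 181 in 8R, and in CA1 polysome RNA at 38.1, 41.7 and 37.9 and 153, 117 and 224. In CA3 total RNA it was at 49.4, 54.3 and 42.4 in NIC and 106, 105, 67.3 and 171 in 8R, and in CA3 polysome RNA at 44.6, 25.6 and 31.9 and 97.4, 84.3, 55.9 and 159. The groups did not overlap in any of these pairs, and in CA3 the pool 3 array came nearest to the controls. The rise was 3.13-fold in CA1 total RNA (1.65 ± 0.23 SE, adjusted p = 3.43e-06) and 3.18-fold in CA1 polysome RNA (1.67 ± 0.24 SE, adjusted p = 4.66e-05). In CA3 it was 1.91-fold in total RNA (0.93 ± 0.23 SE, adjusted p = 0.00587) and 2.21-fold in polysome RNA (1.15 ± 0.23 SE, adjusted p = 0.00558), where the call was lost without the NIC pool 2 array (1.02, adjusted p = 0.053).

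Trib3 encodes a pseudokinase that is induced by ATF4 and CHOP and restrains them. It was dim, at 22.3, 29.7 and 27.8 in NIC and 42.5, 28.4, 28.2 and 52.8 in 8R CA1 total RNA. In CA1 polysome RNA it was at 28.3, 24.3 and 25.0 in NIC and 46.7, 41.3 and 61.6 in 8R. The CA1 total groups overlapped and the CA1 polysome groups did not. Trib3 rose 1.56-fold in CA1 polysome RNA (0.64 ± 0.18 SE, adjusted p = 0.0261), and the call was lost without 8R pool 4 (0.52, adjusted p = 0.055), without any 1 of the NIC arrays and without that of 8R pool 1. The CA1 total log2 difference was 0.32 (interval -0.03 to 0.67, adjusted p = 0.175). In CA3 it was -0.21 in total RNA (-0.56 to 0.14) and 0.38 in polysome RNA (0.03 to 0.73), with overlapping groups.

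Chac1, whose product degrades glutathione and which is a sensitive ATF4 and CHOP target, rose in all 4 comparisons. It was at 70.4, 53.8 and 60.4 in NIC and 228, 184, 138 and 264 in 8R CA1 total RNA, and at 61.9, 71.1 and 74.6 and 188, 156 and 318 in CA1 polysome RNA. In CA3 it went from 73.0, 73.6 and 64.7 to 178, 163, 99.9 and 296 in total RNA and from 65.6, 68.4 and 72.9 to 139, 137, 98.0 and 255 in polysome RNA. All 8R arrays were above all NIC arrays, and the pool 4 array was the highest in each of the 4 groups. The rise was 2.77-fold in CA1 total RNA (1.47 ± 0.25 SE, adjusted p = 5.24e-05), 2.67-fold in CA1 polysome RNA (1.42 ± 0.27 SE, adjusted p = 0.00103), 2.18-fold in CA3 total RNA (1.12 ± 0.25 SE, adjusted p = 0.00255) and 1.94-fold in CA3 polysome RNA (0.95 ± 0.25 SE, adjusted p = 0.0348). The CA3 polysome call was lost without the array of 8R pool 4 (0.71, adjusted p = 0.13) or 8R pool 1, without any 1 of the NIC arrays, after quantile normalization (0.91, adjusted p = 0.12) and with 64 added before logs (0.69, adjusted p = 0.065).

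Asns encodes asparagine synthetase, the textbook amino acid response target of ATF4. It passed the test in no comparison of 8R with NIC. It was at 398, 336 and 415 in NIC and 467, 345, 415 and 535 in 8R CA1 total RNA, and at 530.4, 532 and 559.9 and 422, 413 and 525 in CA1 polysome RNA, where all 8R arrays lay below all NIC arrays (11.2% of all genes did). The CA1 log2 differences were 0.18 in total RNA (interval -0.06 to 0.42) and -0.26 in polysome RNA (-0.51 to 0.00, adjusted p = 0.219). Without 8R pool 4 the latter was -0.36 and was called (adjusted p = 0.0356). In CA3 total RNA it was at 316, 372 and 386 in NIC and 363, 344, 392 and 413 in 8R, and in CA3 polysome RNA at 431, 476 and 424 and 375, 452, 416 and 435. The CA3 differences were 0.08 (-0.16 to 0.32) and -0.08 (-0.32 to 0.16), so a rise of the size seen for Ddit3 lies outside the intervals in both regions. The CA3 total difference was -0.07 after quantile normalization.

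The ratio of polysome to total signal fell for Cebpg in CA1 after ischemia, and this was the 1 change of ratio among the 9 genes that passed the test (in CA1 3.41% of all genes were called lower and 0.409% higher, and in CA3 0.165% in either direction). After quantile normalization the share of higher among called genes went from 10.7% to 40.3% in CA1 and from 33.3% to 57.9% in CA3. Within pools, the log2 ratio of Cebpg in CA1 was 0.72, 0.58 and 0.49 in NIC and -0.58, -0.37 and -0.59 in 8R. The sign thus turned from above 0 in all NIC pools to below 0 in all 8R pools. The polysome change minus the total change was -1.08 ± 0.17 SE (adjusted p = 0.00389), and it was called under all 24 alternatives, from -1.33 to -0.69. In CA3 the ratio of Cebpg was 0.10, 0.55 and 0.15 in NIC and -0.35, -0.17, -0.29 and -0.53 in 8R, again on opposite sides of 0. There the difference was -0.60 ± 0.17 (adjusted p = 0.0806). Without 8R pool 4 it was -0.54 and was called (adjusted p = 0.0479), and it was also called without the pool 4 array of total RNA alone (-0.58, adjusted p = 0.0426). With the pool as a block within each condition it was called in CA3 as well (-0.60 ± 0.13, adjusted p = 0.00401). The CA1 fall minus the CA3 fall was -0.48 log2 (95% interval -0.97 to 0.01, adjusted p = 1), so a difference between the regions was not shown. By limma's test of that difference 0% of all genes were called, and 0 of the 9 genes had an unadjusted p under 0.05.

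Total and polysome RNA of a pool came from 1 supernatant, and in 8R arrays of the same pool deviated together, so the fit with the pool as a block bears on these ratios. The block gave CA1 and CA3 arrays of the same condition and pool number a common term, though whether they share rats is not stated. It thus does not model the supernatant of each region by itself, and its calls rest on that pairing. In NIC, the fractions of a pool correlated at -0.04 to 0.22 only. With the block, 3 of the 9 genes were lower and 1 higher in CA1 (14.1% and 2.98% of all genes), and 2 were lower and 1 higher in CA3 (11.6% and 4.86%). For Atf3 the CA1 ratio was 1.03, 1.24 and 0.61 in NIC and -0.48, -0.12 and -0.03 in 8R, and the groups stood apart. The difference was -1.13 ± 0.36 SE (adjusted p = 0.067) without the block and -1.14 ± 0.23, adjusted p = 0.00108 with it. It was -2.02 with 1 added in place of 16 (adjusted p = 0.0208), and without 8R pool 4 it was -1.20 (adjusted p = 0.0279). In CA3 the ratio of Atf3 was 0.36, -0.21 and -0.02 in NIC and -0.40, -0.97, -0.47 and -0.53 in 8R, a difference of -0.64 (adjusted p = 0.283; with the block -0.64 ± 0.22, adjusted p = 0.0428). Asns had CA1 ratios of 0.40, 0.64 and 0.42 in NIC and -0.14, -0.01 and -0.03 in 8R, and a difference of -0.44 (adjusted p = 0.13; with the block -0.48 ± 0.14, adjusted p = 0.0172; without the 8R pool 2 array of total RNA -0.54, adjusted p = 0.0495). On the other side, Cebpb had 0.05, -0.20 and -0.33 in NIC and 0.46, 0.03 and 0.43 in 8R CA1, a difference of 0.49 (adjusted p = 0.116; with the block 0.45 ± 0.15, adjusted p = 0.0339). Trib3 in CA3 had -0.36, -0.68 and -0.50 in NIC and -0.20, 0.17, 0.43 and -0.08 in 8R, a difference of 0.59 (adjusted p = 0.178; with the block 0.59 ± 0.18, adjusted p = 0.025).

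**Figure D3:**
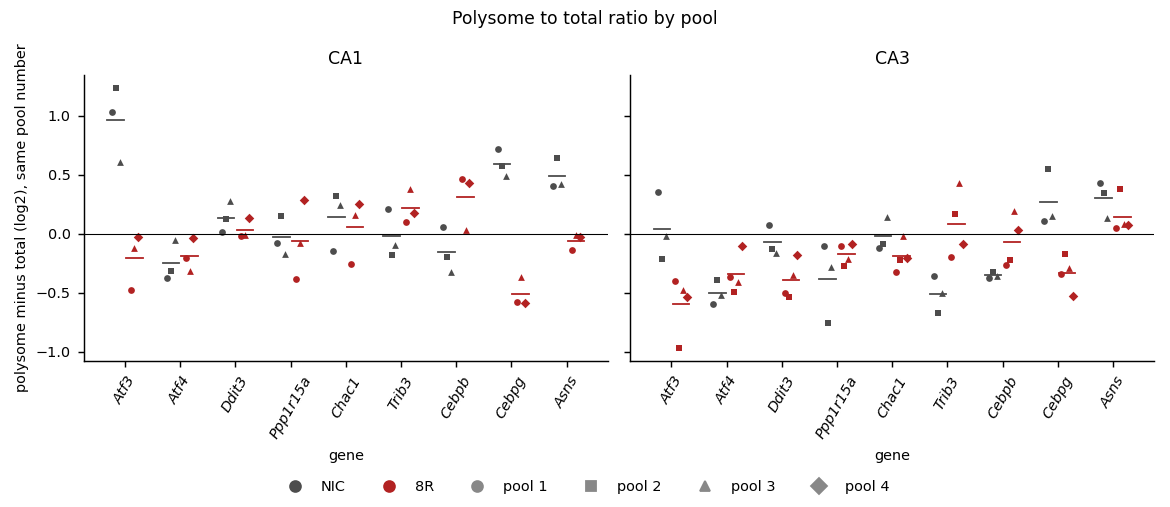
Polysome minus total log2(intensity + 16) within a pool for the 9 genes, in CA1 on the left and CA3 on the right. Grey symbols are NIC and red symbols 8R pools, the shape gives the pool number and the line the mean of the pools shown. For Cebpg the grey symbols lie above 0 and the red symbols below 0 in both regions.

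Atf4, Ddit3, Ppp1r15a and Chac1 also rose in both fractions. They are set apart here by their ratio, which was called neither without nor with the block, so what follows is a description. In CA1 the polysome change minus the total change was 0.11 for Atf4 (95% interval -0.32 to 0.54), -0.11 for Ddit3 (-0.79 to 0.58), 0.02 for Ppp1r15a (-0.67 to 0.70) and -0.05 for Chac1 (-0.80 to 0.70). In CA3 it was 0.16 (-0.26 to 0.57), -0.32 (-0.98 to 0.34), 0.21 (-0.45 to 0.88) and -0.17 (-0.89 to 0.55) for the same genes. These intervals are wide enough to hold a shift in either direction. For Atf4, whose translation is known to depend on how ribosomes pass its upstream open reading frames, the ratio in CA1 was -0.37, -0.31 and -0.06 in NIC and -0.20, -0.32 and -0.03 in 8R, with overlapping groups. In CA3 it was -0.59, -0.39 and -0.52 and -0.37, -0.50, -0.41 and -0.11, overlapping as well. A polysome pellet counts a transcript alike whether its ribosomes sit on an upstream or on the main reading frame.

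In controls the fractions themselves differed for some genes. In NIC CA1 Atf3 (0.96), Cebpg (0.59) and Asns (0.49) were higher in polysome than in total RNA, where 39.4% of all genes were called higher and the median of all genes was 0.20. After quantile normalization, which moved the share of higher among called genes from 89.5% to 56.6%, Asns was at 0.11 and no longer called, and with 64 added before logs Atf3 was at 0.40 and no longer called. Under the pool block the same 3 genes were called higher (44.6% of all genes), and Atf4 was called lower (-0.25 ± 0.09, adjusted p = 0.0152; 6.76%). In NIC CA3 Atf4 (-0.50), Trib3 (-0.51) and Cebpb (-0.35) were lower in polysome RNA (16.9% of all genes). Without the pool 2 array of either fraction Trib3 and Cebpb were no longer called, and after quantile normalization neither was either, at -0.37 and -0.35. With the pool as a block, 4 genes were lower and 2 higher there (22.3% and 27.4% of all genes). After ischemia Cebpb was higher in CA1 polysome RNA (0.33; 28.5% of all genes higher), which was 0.18 and not called after quantile normalization (share of higher among called genes 82.8%, then 52.7%), and 0.27 and not called without pool 4. It was not called either without the array of pool 1 in either fraction or the total array of pool 2. Under the pool block Cebpb and Trib3 (0.32 ± 0.13, adjusted p = 0.0428) were called higher there (36.2% of all genes) and Cebpg lower (7.63%). Cebpg was lower in polysome RNA of CA1 (-0.49; 5.9% lower) and of CA3 (-0.34; 12.9% lower), where it was -0.27 and not called without pool 4 and -0.29 and not called after quantile normalization (share of higher 37.3%, then 52.2%). It was also not called there without the polysome array of pool 3 or 4 or the total array of pool 1 or 4. With the block, Atf3, Atf4 and Ddit3 joined Cebpg as lower in 8R CA3 polysome RNA (18% of all genes).

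For none of the 9 genes did the difference between the CA1 and the CA3 change pass limma's test, in which 0.0236% of all genes were called in total RNA and 0.0157% in polysome RNA. At an unadjusted p under 0.05 there were 3 genes in total RNA and 0 in polysome RNA. The share of all genes at this threshold was not counted, so the counts are not read as results about the 9 genes. The 3 genes in total RNA were Ppp1r15a, with a CA1 change minus CA3 change of 0.72 (95% interval 0.05 to 1.38), Cebpg with 0.57 (0.22 to 0.91) and Trib3 with 0.53 (0.03 to 1.03). With the pool as a block, Cebpg (0.57 ± 0.13, adjusted p = 0.0349) and Ppp1r15a (0.72 ± 0.17, adjusted p = 0.0423) were called higher in CA1, where 0.393% of all genes were. As in the paragraphs above, here and below this block takes CA1 and CA3 of the same pool number as paired, which is not stated. Atf3 had differences of -0.19 in total RNA (-0.90 to 0.51) and -0.69 in polysome RNA (-1.41 to 0.04). Ddit3 had 0.16 (-0.50 to 0.82) and 0.38 (-0.30 to 1.06). The intervals are wide, so these values do not show that the regions responded alike.

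Among controls, no gene of the 9 passed the test of CA1 against CA3 in total RNA (3.47% of all genes were called, of which 69.4% were higher in CA1 and 58.4% after quantile normalization; limma also gave 0 at an unadjusted p under 0.05). In NIC polysome RNA Cebpb was higher in CA1 (0.37 ± 0.13 SE, adjusted p = 0.038; 27.7% of all genes were higher, with a median of 0.23). With the pool as a block Atf3 and Asns were called too (43.1% of all genes). Both counts lie below the share of all genes and are not read as results about the 9 genes. After quantile normalization the Cebpb difference was 0.12 and was not called, and the share of higher among all called genes went from 97.4% to 58.9%. It was also lost without the array of NIC CA1 pool 1 or 2 or of NIC CA3 pool 2 or 3.

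After ischemia Cebpg was higher in CA1 than in CA3 total RNA (0.39 ± 0.11 SE, adjusted p = 0.0286), where 3.57% of all genes were. The call was lost without the array of 8R CA1 pool 1 or 4 or of 8R CA3 pool 2 or 3. With the pool as a block 4 genes were higher in CA1 (7.46% of all genes) and 1 was lower (7.27%). The higher genes were Cebpg (0.39 ± 0.09, adjusted p = 0.00188), Ppp1r15a (0.52 ± 0.11, adjusted p = 0.00132), Atf4 (0.21 ± 0.07, adjusted p = 0.0488) and Trib3 (0.34 ± 0.12, adjusted p = 0.0469), and the lower gene was Atf3 (-0.54 ± 0.14, adjusted p = 0.00773). In 8R polysome RNA 4 genes were higher in CA1, where 24.1% of all genes were and the median of all genes was 0.19. They were Ppp1r15a (0.68), Trib3 (0.56), Cebpb (0.54) and Atf4 (0.42). Under the pool block 6 genes were called higher (33.5% of all genes), these 4 and also Ddit3 (0.58 ± 0.11, adjusted p = 0.000194) and Chac1 (0.43 ± 0.10, adjusted p = 0.00201). Without the block the count was 1 without the CA1 array of pool 4, and 2 without the CA1 array of pool 1 or the CA3 array of pool 2 or 3. After quantile normalization none of the 9 was called there, with 0.44, 0.40, 0.30 and 0.29 for these genes, and the share of higher among all called genes went from 95.1% to 51.4%.

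Ordered by mean log2 level, the 4 groups of 8R arrays came before the 4 NIC groups for Atf3, Ddit3, Ppp1r15a and Chac1, and the lowest 8R group and the highest NIC group did not overlap. Within the 8R groups all neighbours in the order overlapped for these genes. For Atf3 the order of means was 8R CA3 total (195), CA1 total (124), CA3 polysome (124) and CA1 polysome RNA (107), before NIC CA1 polysome RNA (33.4). For Atf4 the 8R groups also came before the NIC groups, from 8R CA1 total (705) to CA3 polysome RNA (478), but 8R CA3 polysome RNA overlapped with NIC CA3 total RNA (427). NIC CA3 polysome RNA (297) was the lowest. For Cebpg, 8R CA1 total RNA (119) stood apart from 8R CA3 total RNA (86.9), and NIC CA1 total RNA (37.8), the lowest, stood apart from its neighbour, with overlap in between. For Asns, NIC CA1 polysome RNA (541) stood apart at the top and the remaining 7 groups overlapped in turn. For Trib3 only NIC CA3 polysome RNA (18.1) stood apart from its neighbour, at the bottom. For Cebpb, NIC CA1 total (93.1) and 8R CA1 total RNA (82.1) were the 1 pair of neighbours that did not overlap.

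For 5 of the 9 genes the same 8R pool was lowest throughout, which is a description. The fractions of a pool share 1 supernatant, and whether CA1 and CA3 of 1 number share rats is not stated. Pool 3 was the lowest 8R array in all 4 groups for Atf3, Atf4, Ddit3, Ppp1r15a and Chac1. Pool 4 was the highest in all 4 groups for Chac1 and in 1 for Ddit3. It was the highest in 3 for Atf3, Atf4, Ppp1r15a, Trib3, Cebpb and Asns. For Trib3, Cebpb, Cebpg and Asns pool 3 was not the lowest in all 4 groups. Cebpg was highest in pool 1 in all 4 groups, Trib3 and Cebpg were lowest in pool 3 in 3 of them, and for Cebpb and Asns the lowest array came from pools 1, 2 and 3. Set against the mean of the other 8R pools of its group, pool 4 was higher by a median of 0.90 log2 for Chac1 and 0.74 for Ppp1r15a. The median was 0.44 for Atf3, 0.43 for Trib3, 0.28 for Atf4, 0.26 for Cebpb, 0.24 for Asns and 0.16 for Ddit3. For Cebpg it was -0.10. Without pool 4 on all arrays the counts of genes called higher in 8R were 6, 6, 6 and 5, and without its CA3 polysome array alone the CA3 polysome count was 3. Over the 27 arrays the log2 levels of Ppp1r15a and Chac1 had a Pearson r of 0.97, those of Atf3 and Ddit3 0.93, and those of Ddit3 and Ppp1r15a 0.94. Cebpb and Atf3 had an r of 0.07, and Asns had between -0.11 and 0.21 with the other 8 genes. These points share 8 group means and the scaling of the arrays, so r is given with no test.

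The genes outside the list whose profile over the 27 arrays was most like the mean standardised profile of the 9 genes were Cxadr (r of 0.970), Timp1 (0.969), Mt1f (0.955), Herpud1 (0.953) and Plk3 (0.952). Cxadr encodes a cell adhesion receptor, Timp1 a metalloproteinase inhibitor, Mt1f a metallothionein, Herpud1 a protein of endoplasmic reticulum-associated degradation and Plk3 a polo-like kinase. Their log2 changes in CA1 total RNA were 1.23, 1.66, 1.85, 1.45 and 0.94 in that order, and in CA3 total RNA 0.90, 1.05, 1.25, 0.96 and 0.41. The CA3 change of Plk3 did not pass the test (adjusted p = 0.16).

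Upstream of the 9 genes, the list of eIF2 kinases, eIF2 subunits and their regulators had 15 of 19 genes tested. Of these, 7 rose in CA1 total, 2 in CA1 polysome, 5 in CA3 total and 0 in CA3 polysome RNA, and none fell. Over all genes 20.1%, 4.87%, 14.2% and 2.38% rose. In CA3 polysome RNA limma gave 3 higher and 2 lower at an unadjusted p under 0.05. The share of all genes at this threshold was not counted, so this is not read as a result about the list. The median change was 0.33, 0.02, 0.23 and 0.02. Eif2s2, the beta subunit of eIF2, rose by 1.05 in CA1 total RNA and 0.60 in CA3 total RNA, and Eif2s1, the alpha subunit that the kinases phosphorylate, by 0.84 and 0.44. Eif2b1, a subunit of the eIF2 exchange factor, rose by 0.63 and 0.41. Named after their values were seen, the 2 genes that rose in CA1 polysome RNA were Eif2s2 (0.58) and Ppp1r15b (0.40), a constitutive counterpart of Ppp1r15a, and Ppp1r15b (0.35) and the phosphatase catalytic subunit gene Ppp1ca (0.34) completed the 5 in CA3 total RNA. The kinase genes Eif2ak1, Eif2ak3 and Eif2ak4 passed the test in none of the 4 comparisons. In CA1 the ratio of polysome to total signal fell for 3 of the 15 genes (3.41% of all genes), namely Eif2s1 (-0.83, adjusted p = 0.0156), Eif2b1 (-0.51, adjusted p = 0.0259) and Ppp1ca (-0.69, adjusted p = 0.0167).

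Of factors that can pair with ATF4 or act beside it, most of them bZIP proteins, 24 of 28 were tested. The numbers that rose and fell were 9 and 1 in CA1 total, 6 and 2 in CA1 polysome, 7 and 1 in CA3 total, and 1 and 1 in CA3 polysome RNA. Over all genes 20.1%, 4.87%, 14.2% and 2.38% rose and 6.15%, 3.46%, 1.34% and 0.275% fell. A single gene that rose or fell on a list of 24 is not read as a result about the list. The median change was 0.24, 0.13, 0.24 and 0.21. Jun, a subunit of AP-1, rose by 1.29 in CA1 and 0.83 in CA3 total RNA, and Cebpz, a CCAAT-binding factor without a bZIP domain, by 0.86 and 0.58. Dbp, a circadian output factor, fell in all 4 comparisons, by 0.76 and 0.46 in CA1 total and polysome RNA and by 0.73 and 0.75 in CA3. Named after their values were seen, the other gene that fell in CA1 polysome RNA was Atf2, by 0.39, and the 1 that rose in CA3 polysome RNA was Nfe2l2, which encodes NRF2, by 0.53.

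Genes of amino acid synthesis and transport were tested for 19 of 20. In CA1, 12 rose and 1 fell in total RNA and 10 rose in polysome RNA, and in CA3, 12 rose in total and 5 in polysome RNA. Of all genes 20.1%, 4.87%, 14.2% and 2.38% rose in the same order, and 6.15% fell in CA1 total RNA. The 1 gene that fell is not read as a result about the list. The median change was 0.68, 0.53, 0.43 and 0.27. Mthfd2, a mitochondrial folate enzyme, rose by 1.35 in CA1 and 0.99 in CA3 total RNA, Psph, the last enzyme of serine synthesis, by 1.16 and 0.70, and the cationic amino acid transporter gene Slc7a1 by 0.97 and 0.53. The gene that fell, named after its value was seen, was the glycine transporter gene Slc6a9 (-0.56, adjusted p = 0.0293). In CA3 polysome RNA the 5 were Mthfd2 (0.52), the transporter subunit gene Slc3a2 (0.53), Cth (0.44) and Cbs (0.43) of cysteine synthesis and the transaminase gene Gpt2 (0.41). Asns is not counted in this list.

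Aminoacyl-tRNA synthetase and tRNA export genes were tested for 14 of 14. Of these, 12 rose and 1 fell in CA1 total RNA, 7 rose in CA1 polysome RNA, and 11 and 2 rose in total and polysome RNA of CA3. Over all genes 20.1%, 4.87%, 14.2% and 2.38% rose in the same order, and 6.15% fell in CA1 total RNA. The 1 gene that fell is not read as a result about the list. The median change was 0.75, 0.36, 0.64 and 0.18. Eprs1, the glutamyl-prolyl synthetase, rose by 1.79 in CA1 and 1.09 in CA3 total RNA, Cars1 by 1.65 and 0.96, and Tars1 by 1.41 and 0.83. Wars1, named after its value was seen, fell by 0.43 in CA1 total RNA, and the 2 that rose in CA3 polysome RNA were Eprs1 (0.65) and Aars1 (0.42). The median of the polysome change minus the total change was -0.43 in CA1 and -0.35 in CA3 for these genes, beside -0.06 and -0.07 for all genes tested, and 2 of the 14 passed the test in CA1 (Nars1, -0.53, and Sars1, -0.65) and 0 in CA3. Of all genes 3.41% were called lower in CA1, and 0.165% were called in either direction in CA3. In each region limma gave 7 of the 14 lower and 0 higher at an unadjusted p under 0.05. The share of all genes at that threshold was not counted, so these counts are not read as a result about the list.

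**Figure D4:**
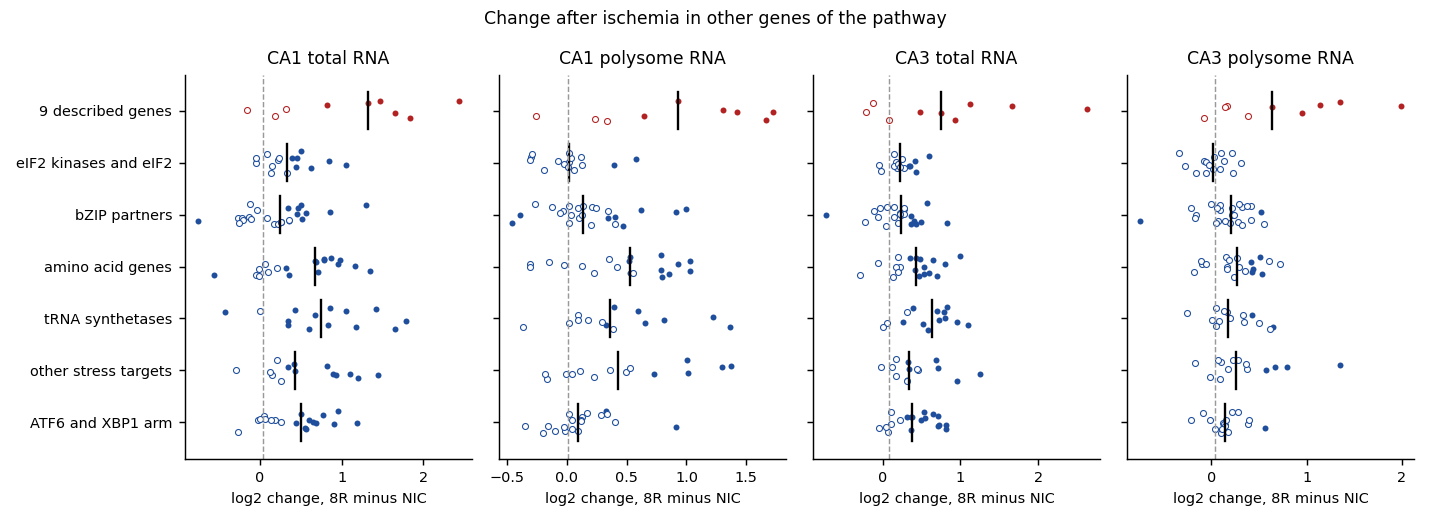
Change after ischemia, 8R minus NIC on the log2(intensity + 16) scale, of the 9 genes (red) and of the tested genes of 6 other lists (blue), in 1 panel per region and fraction. Each point is a gene, filled where the adjusted p was under 0.05, the black bar is the median of the list and the dashed line is the median of all genes tested. The medians of the amino acid genes lie at 0.68 in CA1 total and 0.27 in CA3 polysome RNA.

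Of other stress targets of ATF4 and CHOP, 14 of 22 were tested. The number that rose was 9 in CA1 total, 5 in CA1 polysome, 7 in CA3 total and 4 in CA3 polysome RNA, and none fell. Over all genes 20.1%, 4.87%, 14.2% and 2.38% rose and 6.15%, 3.46%, 1.34% and 0.275% fell. The median change was 0.43, 0.43, 0.34 and 0.26. Herpud1 rose by 1.45 in CA1 and 0.96 in CA3 total RNA. Cdkn1a, a cell cycle inhibitor gene that p53 also regulates, rose by 1.10 and 1.25 there and by 1.29 and 1.35 in polysome RNA. Stc2, which encodes a secreted glycoprotein, rose by 1.19 in CA1 total and 1.37 in CA1 polysome RNA. In CA3 total RNA the change of Stc2 was 0.46 and did not pass the test (adjusted p = 0.0641). The growth factor gene Vegfa (1.00) and the pseudokinase gene Trib1 (0.73), named after their values were seen, made up the 5 in CA1 polysome RNA with Stc2, Herpud1 and Cdkn1a. The 4 in CA3 polysome RNA were Herpud1 (0.79), Cdkn1a, Trib1 (0.66) and the translation repressor gene Eif4ebp1 (0.57). The parallel ATF6 and XBP1 arm of endoplasmic reticulum stress was tested for 19 of 20 genes. Of these, 11 rose in CA1 total, 2 in CA1 polysome, 13 in CA3 total and 2 in CA3 polysome RNA. The shares of all genes that rose were again 20.1%, 4.87%, 14.2% and 2.38%, and 2 genes of 19 are not read as a result about the list. The medians were 0.51, 0.09, 0.38 and 0.14. Hspa5, the chaperone BiP, rose by 1.18 and 0.81 in CA1 and CA3 total RNA and by 0.92 and 0.56 in polysome RNA, where the second gene of each region was the sensor gene Ern1 (0.32 and 0.38), named after its value was seen. Calr, which encodes calreticulin, rose by 0.95 and 0.71 in total RNA, and Hsp90b1, another chaperone of that organelle, by 0.91 and 0.81, while their polysome changes, 0.13 (CA1) and 0.10 (CA3) for Calr and 0.17 and 0.14 for Hsp90b1, did not pass the test. In CA1 the polysome change minus the total change was -0.82 for Calr (adjusted p = 0.0106) and -0.74 for Hsp90b1 (adjusted p = 0.00895), and the disulfide isomerase genes Pdia3 (-0.79) and Pdia6 (-0.71) were called as well. In CA3 Hsp90b1 (-0.67) and Pdia6 (-0.93) were called. Of all genes 3.41% were called lower in CA1, and 0.165% were called in either direction in CA3.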

How the data were processed

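The intensities of total and polysome RNA on 27 arrays were deposited by the authors untransformed, with a value for each probe set. Per the submitters' processing notes, PLIER in Affymetrix Expression Console made them. Neither a version, a background correction nor a scaling is given in the sources used here. Of 36685 probe sets 18511 carried 1 gene symbol, 575 several and 17599 none, and for each of 18166 genes the brightest one entered the analysis. Values were taken as log2(intensity + 16), and genes whose mean over all 27 arrays fell under the 30th percentile (5.39) were not tested. In R 4.3.3, limma 3.58.1 fitted 8 group means over all arrays at once, with the prior variance following intensity (19 residual and 10.1 prior degrees of freedom). Two-sided p-values were adjusted by Benjamini-Hochberg over 12716 genes in each of 17 comparisons, and genes under 0.05 were called. The code was tested on simulated data. The numbers of arrays limit the precision, and p-values measure the spread between pools.

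The 9 genes, the 6 other lists and the naming rules were chosen with earlier results of these data known. All 9 genes were described. From each other list up to 3 genes with the largest called change in total RNA were named. The 5 genes most like the mean profile of the 9 were those with the highest Pearson r, leaving out locus and clone names. Alternatives were 1 or 64 added before logs, no filter, quantile normalization, the mean of a gene's probe sets, array weights, a fit of the compared groups, pool blocks, each array left out and 8R pool 4 left out.

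Total and polysome RNA with the same pool number came from 1 supernatant, per the labels. For the pairing check, each array's deviation from its group mean was correlated with that of its partner. Arrays of the same 8R pool correlated at 0.33 to 0.66 between fractions of CA1, at 0.28 to 0.77 between fractions of CA3, and at 0.12 to 0.78 between regions, and NIC arrays at -0.04 to 0.22. Whether CA1 and CA3 of 1 number came from the same rats is not stated, and without a block they were treated as independent. The blocks of condition and pool joined CA1 and CA3 of 1 number, and the block of pool number also joined NIC and 8R.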

Additional observations from a re-analysis of the deposited data

Results flagged for a closer look

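One result was picked out because the effects of ischemia differed between RNA fractions by the test of the difference itself. The change of Cebpg in CA1 polysome RNA minus its change in CA1 total RNA was -1.08 ± 0.17 log2 (SE; limma adjusted p = 0.00389), from a rise of 1.32 in total RNA and a difference of 0.23 in polysome RNA. The ratio was lower in 8R than in every NIC pool in all 3 CA1 pools with both fractions. Among the 27 sets of 4 arrays of the 9 genes no array stood apart from the other 3 by Dixon's criterion.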

How the results depend on the processing

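The count of the 9 genes called in 8R against NIC was 6 in CA1 total RNA and in CA3 total RNA, and stayed within 1.5 times that under all alternatives. For CA3 polysome RNA 5 became 3 after quantile normalization. Cebpg, Atf3, Atf4, Ddit3, Ppp1r15a and Chac1 were called in CA1 total RNA under every alternative. For polysome minus total RNA in 8R CA1 the count of 2 was 1 without the filter, after quantile normalization, in a fit of the compared groups and without pool 4. For 8R CA3 the count of 1 was 2 with 64 added, 0 after quantile normalization, 4 with array weights, 0 in the fit of the compared groups and 2 without pool 4. For NIC CA3 the count of 3 was 5 with array weights and in the fit of the compared groups. For CA1 minus CA3 the count in NIC polysome RNA was 1, and 0 after quantile normalization, 3 with array weights, in the fit of the compared groups and without 8R pool 4. In 8R total RNA 1 became 2 with array weights, 0 in the fit of the compared groups and 2 without pool 4. In 8R polysome RNA 4 became 0 after quantile normalization, 7 with array weights and 2 in the fit of the compared groups. For the polysome change minus the total change in CA1, 1 became 2 with 1 added, 4 with array weights, 2 in the fit of the compared groups and 2 without pool 4, and in CA3 0 became 3 with array weights and 1 without pool 4. The shares of all genes under the same settings are not given in this section. Its changed counts are therefore not read as results about the 9 genes.

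With the pool number as a replicate block, with condition and pool as a random block and with condition and pool as a fixed block, the counts were 4, 4 and 4 for the change of ratio in CA1 and 2, 2 and 3 in CA3. They were 6, 5 and 6 for polysome minus total RNA in NIC CA3, 3, 4 and 4 in 8R CA3, 3, 3 and 3 for CA1 minus CA3 in NIC polysome RNA, and 3, 3 and 5 in 8R total RNA. The fixed block of condition and pool gave 2 for the CA1 change minus the CA3 change in total RNA. The pool number as a block also called Asns lower in CA1 polysome RNA (-0.34, adjusted p = 0.0245). That block gives NIC and 8R pools of the same number a common term, though their rats differ. This call is therefore not read as a result. No other count moved by over 1.5 times with a block, and the single calls it added elsewhere are given with their comparisons.

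Leaving out 1 array at a time gave 6 to 6 genes in CA1 total, 5 to 7 in CA1 polysome, 5 to 6 in CA3 total and 2 to 5 in CA3 polysome RNA. It gave 0 to 0 for the differences of change between regions and between regions in the ratio, 1 to 2 for the change of ratio in CA1 and 0 to 1 in CA3. For CA1 minus CA3 it gave 0 to 0 in NIC total, 0 to 1 in NIC polysome, 0 to 2 in 8R total and 1 to 6 in 8R polysome RNA, and for polysome minus total 3 to 3 in NIC CA1, 1 to 3 in NIC CA3, 1 to 2 in 8R CA1 and 0 to 4 in 8R CA3.

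Reversed values were all of uncalled differences near 0. Asns in CA3 total RNA was -0.070 after quantile normalization, and -0.0066 to 0.13 with 1 array left out. The change of ratio in CA1 was 0.062 for Ddit3 with array weights, and for Ppp1r15a it was -0.055 after quantile normalization, -0.051 with array weights, -0.034 with the pool number as a block, -0.013 with condition and pool as a fixed block, and -0.15 without pool 4. With 1 array left out it was -0.0073 to 0.31 for Atf4, -0.33 to 0.11 for Ddit3, -0.21 to 0.22 for Ppp1r15a and -0.33 to 0.15 for Chac1. The change of ratio in CA3 was 0.026 for Asns after quantile normalization, and with 1 array left out -0.013 to 0.42 for Ppp1r15a and -0.41 to 0.074 for Chac1. The cause was not tested. Array signal limits Atf3, whose control values in total RNA of both regions and in CA3 polysome RNA lie near the constant added before logs.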
